A study of Mus musculus with 6 samples.

Results

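The miR-30 family was represented by 7 of the 750 miRNA assays on the TaqMan rodent cards. They were chosen by name, as the assays called miR-30 with a letter from a to e and without the # sign that marks a passenger strand. Card A held mmu-miR-30a, mmu-miR-30b, mmu-miR-30c, mmu-miR-30d and mmu-miR-30e, and card B held hsa-miR-30a-3p and hsa-miR-30e-3p. Each card well is a separate real-time PCR, and its threshold cycle (Ct) falls as the amount of template rises, by 1 cycle for each doubling at full efficiency. The study asked whether vitrification changes the miRNAs of mouse blastocysts, with 3 vitrified pools (V1 to V3) and 3 fresh pools (F1 to F3) of 300 embryos each.

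All pools came from Kunming mice, an outbred stock. Females of 5 weeks were superovulated with eCG and hCG and mated. The labels give CZB as the culture medium of every pool. The vitrified group passed through 10% ethylene glycol (EG) with 10% DMSO for 30 seconds, then through EDFS30 for 25 seconds, a Ficoll and sucrose solution that holds 15% EG and 15% DMSO. It was plunged into liquid nitrogen in an open-pulled straw and thawed in 0.5 M sucrose for 5 minutes. The fresh group served as the control and was not vitrified. The study judged survival of the vitrified embryos by their morphology and re-expansion in the hours after warming. Its methods do not give the time from warming to RNA extraction. Any difference between the groups in embryo age or in the selection of survivors cannot be told apart from vitrification. The number of mice behind each pool is not given in the sources used here. A pool is a bulk sample of inner cell mass and trophectoderm, in which fewer cells of a type and less RNA per cell cannot be told apart.

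A miRNA is cut as a short duplex from a hairpin precursor, and the strand from its 5′ side (5p) or 3′ side (3p) can be loaded onto an Argonaute protein. Bases 2 to 8 of the loaded strand, the seed, pair with target mRNAs, so miRNAs with one seed share many targets. The miR-30 family is broadly expressed in differentiated tissues such as epithelia, muscle and heart, where its 5p strands are usually the abundant ones, and it is known for repressing transcription factors of the epithelial-to-mesenchymal transition such as Snai1. The assays named without an arm were read as the 5p strand, since the other strand of each of their hairpins had an assay of its own.

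Sequences were found in RefSeq (GRCm38.p6) for 5 of the 7 assays and are shown because they separate the assays into 2 seed groups and show how close the members are. Capitals mark the seed.
mmu-miR-30a-5p: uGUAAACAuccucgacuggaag
mmu-miR-30e-5p: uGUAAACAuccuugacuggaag
mmu-miR-30c-5p: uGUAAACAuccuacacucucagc
mmu-miR-30a-3p: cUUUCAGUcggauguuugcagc
mmu-miR-30e-3p: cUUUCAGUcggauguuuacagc

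The 5p strands shared the seed GUAAACA and the 3p strands the seed UUUCAGU. Counted from the 5′ end, mmu-miR-30a-5p and mmu-miR-30e-5p were identical at 21 of 22 positions and differed by C13U. Their 3p strands were also identical at 21 of 22 positions and differed by G18A. The 5p strand of miR-30c matched that of miR-30a at 17 of the 22 positions compared, and all 5 differences lay after position 12. How far one assay detects a close relative was not measured. The 3p assays carry human names, and the mouse sequences are given. No sequence is printed for mmu-miR-30b and mmu-miR-30d.

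The strands came from separate places in the genome. The mature miR-30a-5p lies at chr1:23272274-23272295 and miR-30a-3p at chr1:23272315-23272336, both in Mir30a on the plus strand. Those of Mir30e lie on the minus strand, at chr4:120772660-120772681 (5p) and chr4:120772618-120772639 (3p). The strand measured as miR-30c is encoded by Mir30c-2 at chr1:23291714-23291736 (plus strand) and by Mir30c-1 at chr4:120769584-120769606 (minus strand), which have the same mature sequence and cannot be told apart by an assay. In the annotation Mir30c-2 neighbours Mir30a, Mir30c-1 neighbours Mir30e within the span of Nfyc, a subunit gene of the transcription factor NF-Y, and Mir30b neighbours Mir30d.

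The pools numbered 1 stood apart from the other pools. V1 had a Ct for 218 miRNA assays and F1 for 140, against 382 to 409 in the other 4 pools. A list of 9 assays stood for the miR-290 to miR-295 cluster, the defining miRNAs of the early mouse embryo. It holds miR-292-3p on each card and leaves out the assay mmu-miR-291-3p. All 9 were undetermined in V1 and F1, and 7 or 8 of them were determined in each of the other pools. Of 5 assays for blood miRNAs (miR-451, miR-142-3p, miR-142-5p, miR-223 and miR-150), 4 were determined in V1, 3 in F1 and all 5 elsewhere. The log2 of their summed level against U6 was −7.17, −4.35 and −4.05 in V1, V2 and V3, and −6.23, −4.55 and −4.34 in F1, F2 and F3. That of the 9 listed embryo assays was −7.51 in V2, −5.32 in V3, −5.58 in F2 and −7.23 in F3, below the blood sum in each of these pools. Of 3 muscle assays (miR-1, miR-133a and miR-133b), 1 was determined in V1 and in F1 and 3 elsewhere, with log2 sums from −13.27 to −5.96. These lists took only assays with mouse names. They leave out rno-miR-1 and the muscle assay hsa-miR-206, which was determined in every pool, V1 and F1 included. Of 2 neural assays (miR-124 and miR-9), 1 or 2 were determined in the pools numbered 2 and 3, and the liver assay miR-122 in V3 and F2. The part of these cell types in the miR-30 levels was not tested.

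All 42 wells of the miR-30 assays had a Ct, in V1 and F1 as well, whereas 122 of all 750 miRNA assays were determined in every pool. The raw Ct of mmu-miR-30b was 27.00, 21.40 and 21.31 in V1, V2 and V3 and 28.38, 21.08 and 20.39 in F1, F2 and F3. That of mmu-miR-30c was 27.61, 21.22 and 21.36 in the vitrified pools and 29.60, 21.30 and 20.11 in the fresh pools. These were the earliest members on card A in the 4 pools numbered 2 and 3, where they ranked between 4 and 9 among 212 to 239 determined assays of the card. Their Ct in V1 and F1 was late in both groups.

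The raw Ct of mmu-miR-30a was 29.20, 22.19 and 22.21 in the vitrified pools and 30.37, 22.33 and 22.01 in the fresh pools. It ranked between 14 and 22 on card A in the pools numbered 2 and 3, and 38 of 140 in V1 and 37 of 88 in F1. For mmu-miR-30d, the Ct was 32.87, 25.61 and 25.78 in the vitrified pools and 32.01, 25.32 and 25.09 in the fresh pools, the latest of the 5 assays of the card in every pool.

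The raw Ct of mmu-miR-30e was 27.06, 23.92 and 24.02 in the vitrified pools and 27.84, 23.69 and 23.02 in the fresh pools. This assay moved least of the 5 on card A. On card B, hsa-miR-30a-3p had a Ct of 26.54, 24.26 and 24.75 in the vitrified and 27.30, 24.89 and 23.44 in the fresh pools, and hsa-miR-30e-3p of 26.58, 24.20 and 24.04 against 27.69, 24.65 and 23.72. In each of these assays the wells of V1 and F1 were the latest, and the vitrified and fresh ranges overlapped.

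The mean Ct of the 4 U6 wells of the same card and pool was subtracted from each Ct to give ΔCt, and −ΔCt was taken as the level on the log2 scale. The mean ΔCt in vitrified and in fresh pools was 5.94 ± 2.81 and 6.41 ± 4.27 (SD, n = 3) for mmu-miR-30b, and 6.10 ± 3.20 and 6.80 ± 5.02 (SD, n = 3) for mmu-miR-30c. It was 7.24 ± 3.59 and 8.03 ± 4.57 (SD, n = 3) for mmu-miR-30a, and 7.71 ± 1.34 and 7.98 ± 2.47 (SD, n = 3) for mmu-miR-30e. For mmu-miR-30d it was 10.79 ± 3.69 and 10.60 ± 3.76 (SD, n = 3). On card B it was 7.89 ± 1.21 and 8.22 ± 2.08 (SD, n = 3) for hsa-miR-30a-3p, and 7.64 ± 1.23 and 8.36 ± 2.20 (SD, n = 3) for hsa-miR-30e-3p. The difference between the group means was smaller than the SD of either group for all 7 assays.

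**Figure D1:**
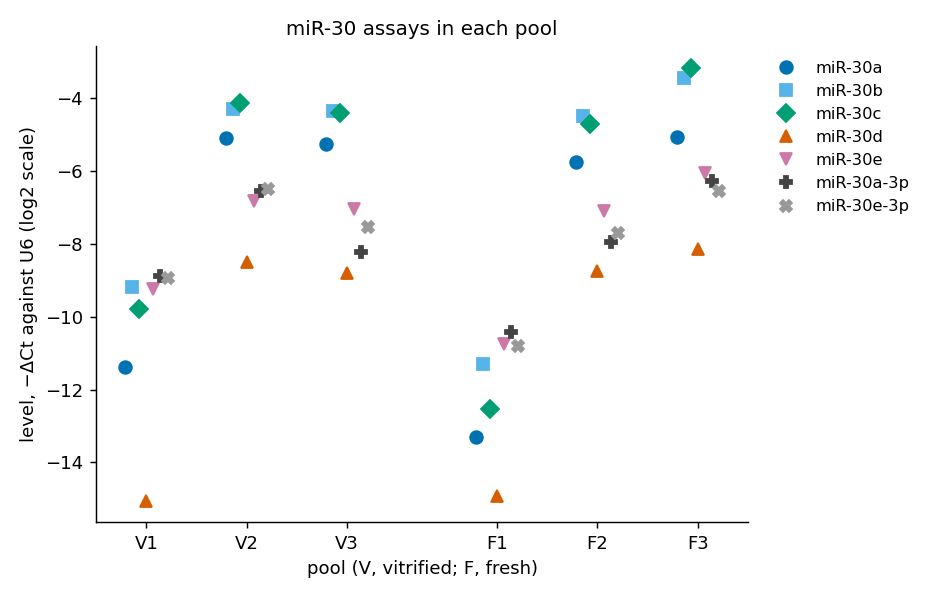
Level of each miR-30 assay (−ΔCt against U6 of the same card, log2 scale) in the 3 vitrified and 3 fresh pools, 1 point per assay and pool. In V1 and F1 all 7 assays lie below their own levels in the other 4 pools, and the order of the assays differs from that in the other pools.

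No miR-30 assay passed the test for a difference between vitrified and fresh blastocysts. In the linear model of limma over the 335 miRNA assays with at least 2 determined wells per group, 0 of the 7 miR-30 assays had an adjusted p-value under 0.05, against 0 of 335 in all (0%). At an unadjusted p-value under 0.05 the numbers were 0 of 7 and 1 of 335 (0.299%), and the smallest unadjusted p-value in the family was 0.622 in limma. The log2 fold change was 0.79 (standard error 2.78) for mmu-miR-30a, 0.47 (2.47) for mmu-miR-30b, 0.70 (2.84) for mmu-miR-30c, −0.19 (2.54) for mmu-miR-30d and 0.27 (1.49) for mmu-miR-30e. It was 0.33 (1.34) for hsa-miR-30a-3p and 0.71 (1.38) for hsa-miR-30e-3p. All 7 had an adjusted p-value of 0.998 in limma, and exact permutation tests over the pools gave p between 0.6 and 1.0 (2-sided, smallest possible 0.1).

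The median log2 fold change of the 7 assays was 0.47, against −0.05 over all 335, and 6 of the 7 were positive, against 161 of 335. The assays share their pools and are not independent replicates. With 1 pool left out in turn the fold change of every member took both signs, from −1.84 without F1 to 2.87 without V1 for mmu-miR-30a and from −2.36 without F1 to 1.94 without V1 for mmu-miR-30d. None of the 7 had groups of ΔCt that did not overlap, against 2 of the 122 assays determined in all pools (1.64%).

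The intervals of these differences were wide. The 95% interval of limma ran from −5.92 to 7.51 for mmu-miR-30a and from −3.34 to 3.88 for mmu-miR-30e. In the pools numbered 2 and 3 alone they were narrower, from −1.29 to 1.76 around 0.23 for mmu-miR-30a and from −2.01 to 1.31 around −0.35 for mmu-miR-30e, and the other 5 log2 fold changes there lay between −0.36 and 0.13. The lowest adjusted p-value of the family in these 4 pools was 0.912 in limma. With the pool number as a block, the limma interval over all 6 pools ran from −1.16 to 2.75 for mmu-miR-30a and from −1.755 to 2.30 for mmu-miR-30e, around the same log2 fold changes as without the block.

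**Figure D2:**
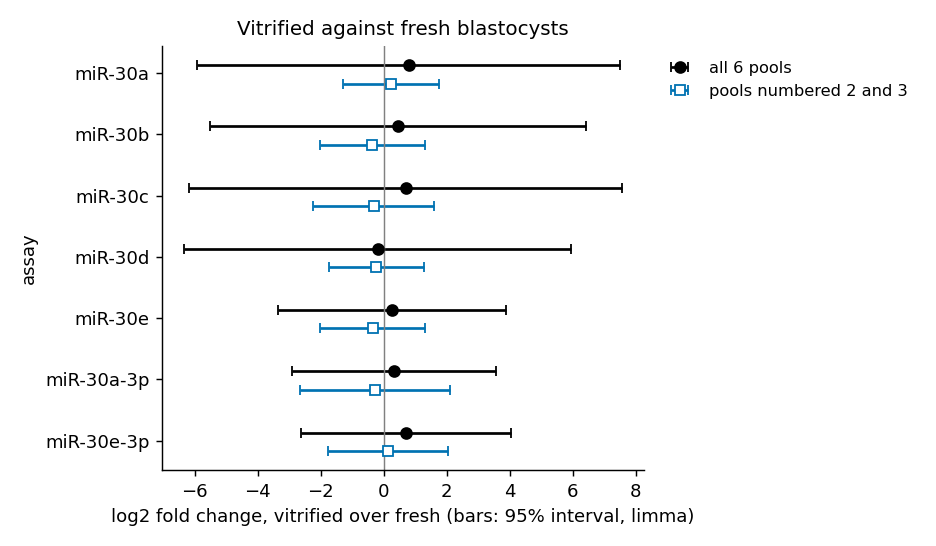
Log2 fold change of each miR-30 assay, vitrified over fresh blastocysts, from limma with all 6 pools (filled circles) and with the pools numbered 2 and 3 only (open squares); bars are 95% intervals. All 14 intervals include 0, and those of the 4 pools are the narrower ones.

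Between pools of the same number the members did not move one way. In the pools numbered 1 the log2 fold change of V1 over F1 was between 1.51 and 2.73 for 6 of the 7 assays and −0.12 for mmu-miR-30d. In the pools numbered 2 all 7 were positive, from 0.20 for mmu-miR-30b to 1.40 for hsa-miR-30a-3p. In the pools numbered 3 all 7 were negative, from −1.95 for hsa-miR-30a-3p to −0.19 for mmu-miR-30a. These signs depend on U6, which is subtracted from every member and had a mean Ct on card A of 17.10 in V2 and 16.59 in F2. Against snoRNA202 the members of card A were lower in V2 than in F2, and the 3p assays were higher. Against the same control every member except mmu-miR-30c was lower in V1 than in F1, and all 7 were lower in V3 than in F3. The pool numbers come from the labels, and same-numbered pools are not described as prepared together.

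Averaged over the 6 pools, the order of the levels was mmu-miR-30b, mmu-miR-30c, mmu-miR-30a, mmu-miR-30e, hsa-miR-30e-3p, hsa-miR-30a-3p and mmu-miR-30d. A difference between 2 assays also carries the efficiency of each PCR, so this order is one of assays and not of molecules. Of the 6 neighbours in this order, 2 differed in the same direction in every pool. The level of mmu-miR-30c was above that of mmu-miR-30a by 1.19 ± 0.45 (SD, n = 6 pools, between 0.77 and 1.90), and that of hsa-miR-30a-3p above mmu-miR-30d by 2.64 ± 2.22 (SD, n = 6, between 0.58 and 6.16). The first difference, between assays of card A, averaged 1.18 in the pools numbered 1 and 1.19 in the other 4. The second, between an assay of card B and one of card A, was 5.34 in the pools numbered 1 and 1.30 in the others. Each had p = 0.0312 in an exact permutation test within pools, the smallest that 6 pools allow, and an adjusted p of 0.0938 over the 6 pairs. The pairs were formed from the order of mean levels in these same 6 pools, so the test is not independent of that order. The other 4 pairs had adjusted p-values from 0.609 to 0.812 in the same exact test, and mmu-miR-30b exceeded mmu-miR-30c by only 0.27 ± 0.56 (SD, n = 6).

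The order was not the same in all pools. In the pools numbered 2 and 3 the raw Ct on card A rose from mmu-miR-30b and mmu-miR-30c through mmu-miR-30a and mmu-miR-30e to mmu-miR-30d, with mmu-miR-30b ahead in V3 and F2 and mmu-miR-30c ahead in V2 and F3. In V1, mmu-miR-30e came second after mmu-miR-30b, and in F1 it came first. The Ct of mmu-miR-30a minus that of mmu-miR-30e was 2.14 in V1 and 2.54 in F1, but −1.73 in V2, −1.81 in V3, −1.36 in F2 and −1.005 in F3. These 2 strands differ at 1 base, and their assays changed places between the pools numbered 1 and the others. The same difference between the 3p assays stayed between −0.39 and 0.70 in all 6 pools.

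Relative to the mean of the 5 assays of card A in the same pool, a measure that needs no reference, the vitrified and fresh ranges of each of the 5 assays overlapped. The difference, vitrified minus fresh, was 0.39 for mmu-miR-30a, 0.06 for mmu-miR-30b, 0.29 for mmu-miR-30c, −0.60 for mmu-miR-30d and −0.14 for mmu-miR-30e on the log2 scale. Exact permutation tests gave p from 0.3 to 0.8 (3 pools against 3), and the adjusted p over the 5 assays was 0.8 for each. The position of mmu-miR-30b was the steadiest, between 1.26 and 1.75 above the family mean in all pools. That of mmu-miR-30e was 1.69 above the mean in V1 and 1.80 in F1, and between 0.89 and 1.08 below it in the other 4 pools.

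The shift of the pools numbered 1 was measured as the mean ΔCt of V1 and F1 minus that of the other 4 pools. It was 7.07 cycles for mmu-miR-30c, 7.06 for mmu-miR-30a, 6.44 for mmu-miR-30d and 6.10 for mmu-miR-30b, and 3.24 for mmu-miR-30e. The median over the 80 card A assays determined in all pools was 4.71 (quartiles 1.997 and 6.48), a set that leaves out assays lost in V1 or F1. Of the 79 other assays of this set, 12 shifted by more than mmu-miR-30c and 54 by more than mmu-miR-30e. On card B the shift was 2.40 for hsa-miR-30a-3p and 2.80 for hsa-miR-30e-3p, against a median of 1.84 over 42 assays. The raw Ct of U6 itself shifted by 0.55 cycles on card A and 0.19 on card B. No test was made of these shifts.

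**Figure D3:**
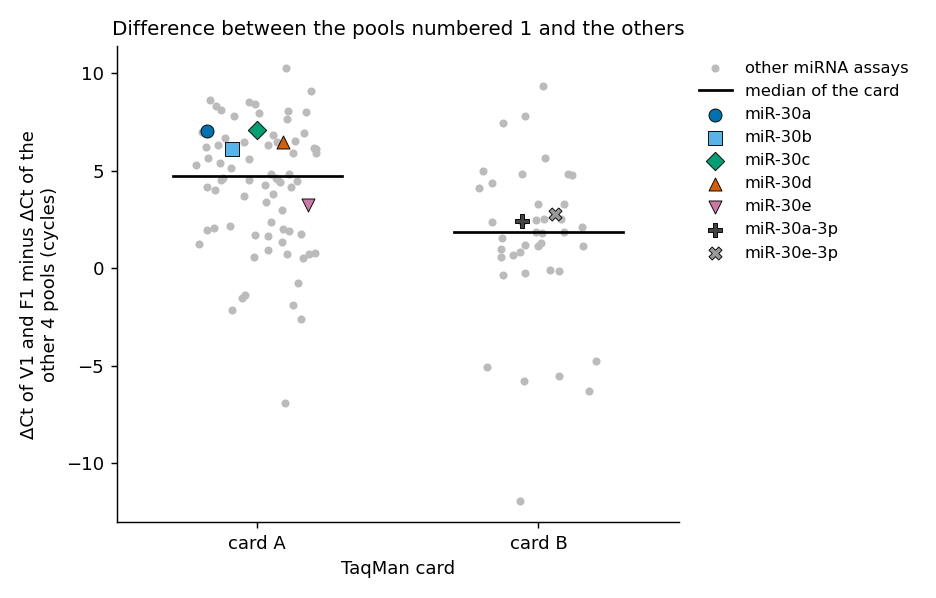
Mean ΔCt of V1 and F1 minus the mean ΔCt of the other 4 pools, in cycles, for the 80 assays of card A and 42 of card B that were determined in all pools, with the miR-30 assays as coloured symbols, the other assays in grey and the median of each card as a line. Of the card A members, mmu-miR-30a, b, c and d lie above the median of 4.71 and mmu-miR-30e below it.

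The arms of 2 hairpins could be compared, each arm against U6 of its own card. For miR-30a the level of the 5p assay minus that of the 3p assay was −2.50 in V1 and −2.88 in F1, but 1.46 in V2, 2.98 in V3, 2.20 in F2 and 1.23 in F3. The 3p assay was thus ahead of the 5p assay in the pools numbered 1 and behind it in the others. For miR-30e the difference was −0.32, −0.34 and 0.47 in V1, V2 and V3 and 0.05, 0.60 and 0.50 in F1, F2 and F3, with no such reversal. The 5p and 3p assays lie on different cards, and the median shift of the pools numbered 1 was 4.71 cycles on card A and 1.84 on card B. These medians were taken over different assays, so they do not measure an effect of the card on any single assay. Whether the card contributed to the arm differences was not tested. Both miR-30a assays shifted by more than the median of their card, whereas mmu-miR-30e shifted by less (3.24) and hsa-miR-30e-3p by more (2.80). Vitrified and fresh pools differed by 0.46 for miR-30a (exact permutation test, p = 0.7, 3 pools against 3) and by −0.44 for miR-30e (exact p = 0.2), and the groups overlapped in both.

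**Figure D4:**
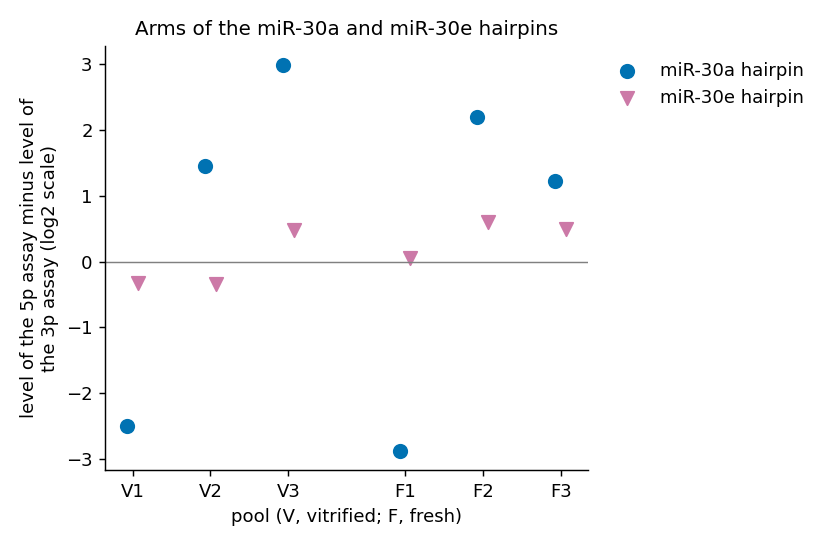
Level of the 5p assay (card A) minus level of the 3p assay (card B) of the miR-30a and miR-30e hairpins in each pool, on the log2 scale. The miR-30a points of V1 and F1 lie below −2 and those of the other pools above 1, whereas the miR-30e points stay between −0.34 and 0.60.

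The opposite strands of the other hairpins were low or undetermined. The assay hsa-miR-30d# had a Ct of 31.37 in V2, 34.45 in V3, 32.09 in F2 and 31.60 in F3, later than mmu-miR-30d in each of these pools, and mmu-miR-30b# had one only in F2 (34.53) and F3 (33.26). The assays hsa-miR-30c-1# and hsa-miR-30c-2# were undetermined in all 6 pools. Among the card assays with a sequence found in RefSeq, 1 further assay had the seed of the 5p strands. Assays without a sequence found could not be searched. The further assay was mmu-miR-384-5p, from Mir384 on the X chromosome, which is known as a neural miRNA.
mmu-miR-384-5p: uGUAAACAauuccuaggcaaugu
Its sequence matched that of mmu-miR-30a-5p at the first 8 positions and at 12 of the 22 compared. It was determined in F3 only, at a Ct of 33.67, more than 8 cycles later than every 5p member in that pool.

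The choice of reference changed the spread of the members in opposite ways. The small nucleolar RNA snoRNA202 shifted between the pools numbered 1 and the others by 8.14 cycles on card A and 8.71 on card B against U6. With it in place of U6, the SD over the 6 pools fell from 3.70 to 0.61 for mmu-miR-30a, from 3.79 to 0.81 for mmu-miR-30c, from 3.24 to 1.17 for mmu-miR-30b and from 3.34 to 1.22 for mmu-miR-30d. It rose from 1.78 to 2.59 for mmu-miR-30e, from 1.53 to 3.41 for hsa-miR-30a-3p and from 1.64 to 3.13 for hsa-miR-30e-3p. The median SD over the assays determined in all pools fell from 2.81 to 1.99 on card A and rose from 1.64 to 3.68 on card B. With snoRNA202 all 7 log2 fold changes were negative, from −1.32 (standard error 0.93) for mmu-miR-30d to −0.33 (0.70) for mmu-miR-30a, with adjusted p = 0.974 for each in limma.

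**Figure D5:**
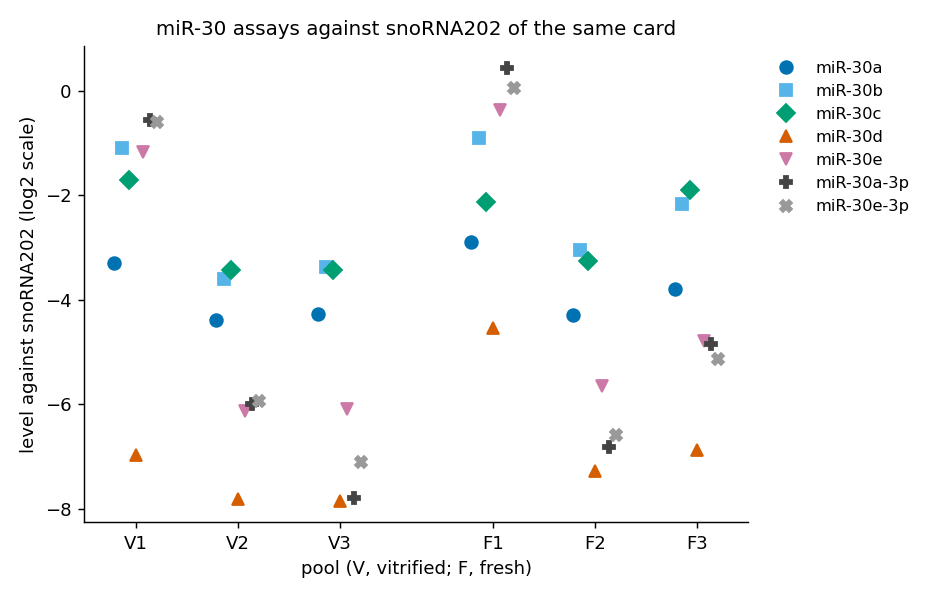
Level of each miR-30 assay against snoRNA202 of the same card (log2 scale) in the 3 vitrified and 3 fresh pools. mmu-miR-30a stays between −4.40 and −2.90, while mmu-miR-30e and both 3p assays lie at −1.17 or higher in V1 and F1 and at −4.80 or lower in the other pools.

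The 115 other miRNA assays determined in all pools were compared with the mean level of the 5 members of card A over the 6 pools. The highest Pearson correlations were those of hsa-miR-223 (0.998), mmu-miR-17 (0.998), mmu-miR-199a-3p (0.997), mmu-miR-140 (0.997) and mmu-miR-106a (0.996). The first is a myeloid miRNA, measured here by a card B assay apart from that of the blood list, and mmu-miR-17 and mmu-miR-106a are relatives with a common seed. The median over the 115 assays was 0.93, with 63 of them above 0.9, and hsa-miR-30a-3p and hsa-miR-30e-3p stood at 0.89 and 0.95. The control snoRNA202 of card A, which is not a miRNA, stood at 0.993, so a high correlation was not particular to the assays named. All points share the same 6 pools and the late wells of V1 and F1. Among the members, the correlation between assays of card A was lowest between mmu-miR-30d and mmu-miR-30e, at 0.95, and highest between mmu-miR-30b and mmu-miR-30c, at 0.999.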

How the data were processed

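From 30 ng of RNA in each pool the authors made cDNA and pre-amplified it. They ran the TaqMan cards for 40 cycles and deposited the raw Ct of each well, as given by RQ Manager, without normalization. A Ct is a log2 value with the sign reversed. The deposited table of the authors' fold changes holds their own comparison and was not used.

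Wells undetermined or at 40 cycles or later were excluded, and U6 of the same card was subtracted, as in the study's methods. All miRNA assays with at least 2 determined wells per group were fitted with lmFit and eBayes of limma 3.58.1 (R 4.3.3), with Benjamini-Hochberg adjustment over the whole table and without a block. The step was tested on simulated data, where the calls were checked only at a residual spread smaller than the real one. That test does not show which changes could be detected at the real spread. Single values were compared with 2-sided exact permutation tests in Python 3.11.15 (pandas 2.3.3, numpy 2.4.6). Precision is limited by 3 pools per group.

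Every member is named. Also named were assays of the opposite arm, assays with a member's seed, the 5 assays most correlated with the family mean, controls and cell type markers. Members, lists and tests were chosen with earlier results of these data known. The alternatives were another reference (snoRNA202, the mean of the assays determined in every pool, or none), wells from 35 cycles on left out, 40 entered for undetermined wells, a ceiling of 35, assays determined in all pools, the pool number as a replicate block, each pool left out, the pools numbered 2 and 3, the methods' t-test and a trended robust prior.

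Same-numbered pools deviated together from their group means over 122 assays (correlations 0.80, 0.78 and 0.67). Those means include V1 and F1, so all 3 correlations carry the shift of these pools and cannot show whether the numbers pair the samples. Without V1 and F1, the V2−V3 and F2−F3 differences correlated at −0.35 over 326 assays. The pool number was therefore used as a block only as an alternative. Gene names, neighbours and sequences come from RefSeq (GRCm38.p6). The deposited values name no genome build.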

Additional observations from a re-analysis of the deposited data

How the results depend on the processing

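Under all 17 alternatives, 0 miRNA assays and 0 miR-30 assays had an adjusted p-value under 0.05 in limma or the methods' t-test, among 122 to 490 assays tested. The lowest p-values of the family under any alternative were 0.836 adjusted and 0.208 unadjusted. Of all miRNA assays tested, 9 of 335 had an unadjusted p-value under 0.05 in the methods' t-test. In limma the numbers were 10 of 326 without V1, 16 of 326 in the pools numbered 2 and 3, and 1 of 335 in the main fit. With the pool number as a replicate block the log2 fold changes were those of the unblocked fit, such as 0.79 for mmu-miR-30a, its standard error fell to 0.80 and no call changed.

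Some alternatives left every member's log2 fold change unchanged and so could not reverse a sign. They were those of the Ct limit, undetermined wells, ceiling, assays kept, block, prior and t-test. The 119 log2 fold changes of the members under the alternatives include these, and 30 of the 119 had the opposite sign. All 30 came from another reference, a pool left out or the pools numbered 2 and 3. With snoRNA202 they were −0.33 for mmu-miR-30a, −0.66 for mmu-miR-30b, −0.43 for mmu-miR-30c, −0.86 for mmu-miR-30e, −1.05 for hsa-miR-30a-3p and −0.66 for hsa-miR-30e-3p. In the pools numbered 2 and 3 they were −0.36 for mmu-miR-30b, −0.32 for mmu-miR-30c, −0.35 for mmu-miR-30e and −0.27 for hsa-miR-30a-3p. For mmu-miR-30e the value was −0.10 with the mean of all assays as the reference and −0.15 without a reference. With each pool left out the ranges were −1.84 to 2.87 (mmu-miR-30a), −1.98 to 2.09 (mmu-miR-30b), −2.17 to 2.54 (mmu-miR-30c), −2.36 to 1.94 (mmu-miR-30d), −1.12 to 1.23 (mmu-miR-30e), −0.77 to 1.30 (hsa-miR-30a-3p) and −0.51 to 1.62 (hsa-miR-30e-3p). The cause was not tested.

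The vitrified minus fresh difference between the arms of miR-30a was −0.045 with the mean of all assays as the reference and −1.07 to 2.04 with each pool left out. The next alternatives were added after the data were seen. Relative to the family mean, the pools numbered 2 and 3 gave −0.15 for mmu-miR-30b and −0.12 for mmu-miR-30c, and leaving out each pool gave −0.084 to 0.15 for mmu-miR-30b, −0.28 to 0.71 for mmu-miR-30c and −1.05 to 0.77 for mmu-miR-30e. In the pools numbered 2 and 3, mmu-miR-30c was ahead of mmu-miR-30b by 0.05 (their difference was −0.050). The level of mmu-miR-30a minus that of mmu-miR-30e was 1.48 in these 4 pools, and −0.12 to 0.75 with each pool left out. For hsa-miR-30e-3p minus hsa-miR-30a-3p the values were 0.18 in these 4 pools and −0.080 to 0.14 with each pool left out.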
